A study of Arabidopsis thaliana with 26 samples.

Results

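In Arabidopsis thaliana T87 cells, a suspension line grown in shaken flasks, 195 probe sets of 193 genes were taken as the genes that fell most with time in culture. They came from 13513 probe sets matched to exactly 1 gene. For each of these, the mean at 24 h minus the mean at 3 h was computed in the ethanol control cells and in the cells given salicylic acid (SA), and members were selected on the larger, less negative, change of the pair. The 200 lowest places were taken, and 6 genes were left out by name (OSM34, GAT1_2.1, AT5G19120, AT2G20670, AT3G15630 and AT1G19530), of which 5 lay within those 200. The control and SA arrays therefore chose the members, and their values are given as a description with no test. The arrays of methyl jasmonate (JA in the labels and here) and of abscisic acid (ABA), alone and combined, had no part in the choice, and all tests are on those 18 arrays.

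The cells were exposed in growth phase to 25 µM ABA, 300 µM SA, 100 µM JA, ABA with SA or ABA with JA at the same doses, or 0.6% ethanol as control, each for 3 h and 24 h. The line was subcultured at fixed intervals under alternating light and dark. No transgene or mutation is given for any group. There were 12 groups, with 3 arrays for ABA alone at 3 h and at 24 h and 2 arrays for every other group, and so few arrays limit how precise any comparison can be. Whether replicates are separate cultures is not stated, and p-values therefore reflect the array-to-array spread alone, part or all of which may be technical. As each array averages a whole culture, fewer cells of a type and less RNA per cell cannot be told apart. No marker gene defines the T87 line, and of the marker lists drawn up for other tissues, 0 of 7 seed storage genes could be found by name and 1 of 8 leaf photosynthesis genes could, PSAN, which is itself a member.

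Plant cells in a flask take up the sugar and nitrate of their medium as they grow, and transcript levels follow the supply. When sugar runs short, the kinase SnRK1 and bZIP transcription factors switch on genes for the breakdown of amino acids, for autophagy, by which a cell digests its own contents in the vacuole, and for moving stored sugar. ABA, a hormone of drought and osmotic stress, acts on some of the same genes. SA and JA act in defence against pathogens and in wounding.

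Several arrays need to be known before the results. Replicates 2 and 3 of ABA at 3 h differed by an SD of 0.158 log2 units across all probe sets, against 0.343 to 0.735 for every other replicate pair. As this is less than the noise seen elsewhere, their mean was taken as 1 sample (n = 2 for ABA at 3 h). The 4 arrays of combined hormones at 3 h carry a title and a source name that contradict each other as to SA or JA. They were therefore used together, as the mean of both pairs, and are called the combined arrays, so that the contradiction changes no value or test below. In the tests each pair kept its own mean before the pairs were averaged. The SE thus holds the spread within the pairs and not the difference between them. Only the plots by group show these 4 arrays apart, placed by source name. The labels of the 24 h arrays do not contradict each other, and there ABA+SA and ABA+JA are given apart. Replicate 1 of JA and replicate 1 of ABA+JA at 24 h stood apart from their partners, as the next paragraph shows. The total counts for JA over time and for ABA+JA against ABA+SA are given with and without them. That of the combined arrays over time is also given without both ABA+JA arrays of 24 h.

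The level of the members, as the median of their 195 log2 signals, was 8.30 and 7.91 in the control arrays at 3 h and 5.93 and 5.47 at 24 h. With SA it was 8.38 and 8.18 at 3 h and 5.79 and 5.49 at 24 h. These are the values that chose the members. With JA the median was 8.29 and 7.57 at 3 h, but 8.10 in replicate 1 and 6.05 in replicate 2 at 24 h. Replicate 1 of JA at 24 h was thus as high as the 3 h arrays and replicate 2 was near the control cells of 24 h. With ABA alone the median was 6.07, 6.81 and 6.83 at 3 h and 6.99, 6.39 and 6.77 at 24 h. All 6 ABA arrays lay between the 3 h and 24 h levels of the control cells, and those of the earlier and later time overlapped. The combined arrays read 8.30, 8.11, 8.44 and 8.46 at 3 h. At 24 h ABA+SA read 6.28 and 5.91, and ABA+JA read 8.07 in replicate 1 and 6.95 in replicate 2. The median over all 22746 probe sets stayed between 4.89 and 5.29 on every array.

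**Figure D1:**
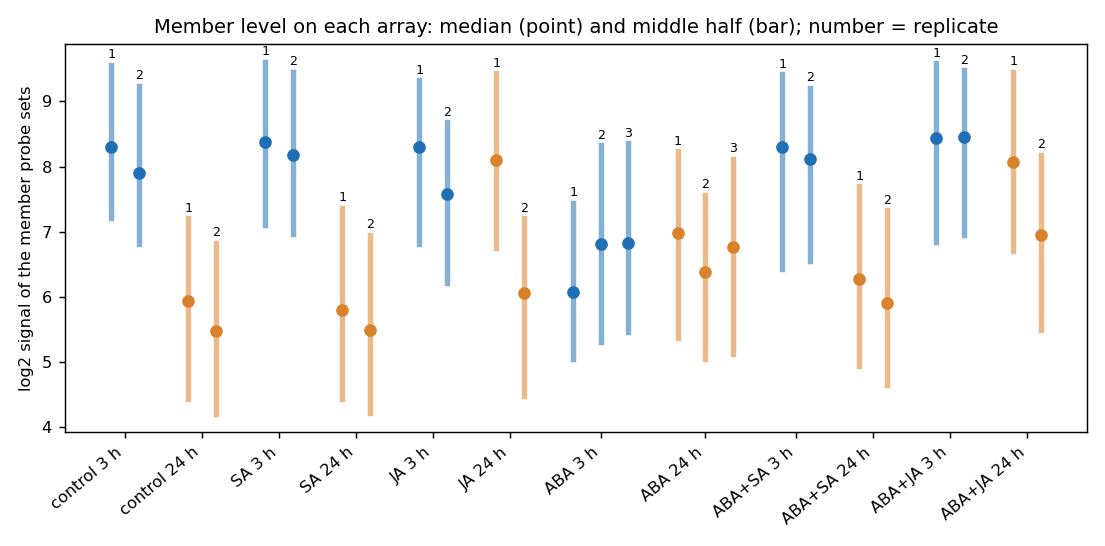
Log2 signal of the 195 member probe sets on each of the 26 arrays, with the median as a point, the middle 50% as a bar and the replicate number above it; blue marks 3 h and orange 24 h. The ABA arrays lie between 6.07 and 6.99 at both times, and at 24 h the replicates numbered 1 with JA (8.10) and with ABA+JA (8.07) lie at the level of the 3 h arrays.

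The changes that chose the members ran from -6.61 to -1.51 log2 units by the ranking value, with a median of -2.20 in the control and -2.22 with SA. The last members inside the limit were AT1G56700 at -1.5179, AT1G15740 at -1.5145 and AT2G20740 at -1.5140. The first probe sets outside it were AT1G52810 at -1.5079, AT2G31945 at -1.5056 and AT2G46550 at -1.5039. The limit thus falls within a smooth run of values. AT2G30600 and AT2G20740 each contributed 2 probe sets. The 193 genes lay on all 5 chromosomes, with 68 on chromosome 1, 30 on chromosome 2, 37 on chromosome 3, 18 on chromosome 4 and 39 on chromosome 5, and 1 in the plastid genome. The annotation gave a gene name for 41 members and only a locus number for 154.

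The lowest of all was AT2G15960. It read 10.11 and 9.46 in the control at 3 h, against 3.37 and 2.97 at 24 h, and 10.90 and 9.91 with SA at 3 h, against 3.22 and 3.05 at 24 h. Next in rank among the members came AT1G62480, PPDK, AT2G32150, NPF6.2, AT4G13030, AT5G43180, AT3G43670, AT1G33055 and AT1G05340. Only PPDK and NPF6.2 of these 10 carry a name in the annotation.

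Whether the members also moved with time where other hormones were present was asked first of ABA with SA or JA. Between the combined arrays of 3 h and those of 24 h, 94 of the 195 members (48.2%) fell and 3 (1.54%) rose at adjusted p under 0.05 in limma, a linear model fitted to all 22746 probe sets. Over all probe sets 13.3% were lower and 18.2% higher. The median log2 change was -1.28 for the members and -0.09 for all probe sets, and 166 members were below 0. With any 1 of the 8 arrays left out in turn, 65 of the 94 members kept their call each time. Without both ABA+JA arrays of 24 h, an alternative chosen after seeing the data, 121 members were lower and 1 higher, and the median change was -1.83. For this and the later alternatives the share of all probe sets called in the same fit is not given. Such counts therefore do not show whether all probe sets gained or lost calls alike. At 24 h, 153 members were at least 1 log2 unit lower in the ABA+SA mean than in the mean of the combined arrays of 3 h (8.74% of all probe sets). So were 113 members in replicate 2 of ABA+JA (7.73% of all probe sets) and 46 in replicate 1 of ABA+JA (7.56%). In that last array 49 members were at least 1 log2 unit higher (10.1% of all probe sets).

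JA alone gave no call among the members. Between 3 h and 24 h, 0 of 195 were lower and 0 higher in limma, against 0.0132% lower and 0.0% higher over all probe sets. An unadjusted p under 0.05 was found for 17 of the 195 members and for 898 of all 22746 probe sets. The median change was -0.65 for the members, with 174 below 0, and 0.04 for all probe sets. The JA arrays of 24 h disagreed with each other. Replicate 1 lay 0.36 above the JA mean of 3 h in the median, with 23 members at least 1 log2 unit higher and 10 lower. Over all probe sets 0.897% were as much higher and 1.89% lower. Replicate 2 lay at -1.65, with 155 members at least 1 log2 unit lower and 5 higher, against 4.74% lower and 3.82% higher over all probe sets. Without replicate 2 the direction of the median turned, to 0.36, and without replicate 1 a single member was called lower.

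With ABA alone the share of members called between 3 h and 24 h was near that of all probe sets. A single member (0.513%) rose and 0 fell in limma, against 0.958% higher and 0.501% lower over all probe sets. An unadjusted p under 0.05 was found for 25 of the 195 members and for 3156 of all 22746 probe sets. With all 26 arrays in the fit, or with no arrays averaged, 5 members were called higher, and without the dimmest 25% of probe sets 2 were. With the replicate number added to the model and no arrays averaged, more members were called in each direction, as the last section gives. The median change was 0.12, with 81 members below 0 and 114 above. It turned to -0.10 without replicate 1 of ABA at 3 h and to -0.01 without replicate 1 of ABA at 24 h, so it had no fixed direction. The member that rose was AT1G68670. On the ABA arrays it read 4.09, 4.69 and 4.58 at 3 h, against 7.27, 7.27 and 8.14 at 24 h, a rise of 3.20 ± 0.40 log2 units (SE, adjusted p = 0.00281), and the times did not overlap. Its call held with any 1 array left out, at adjusted p up to 0.0272. On the other tested arrays of 3 h it read 9.42 and 9.45 with JA and 8.86, 8.38, 8.40 and 9.23 with the combined hormones, all far above ABA alone.

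**Figure D2:**
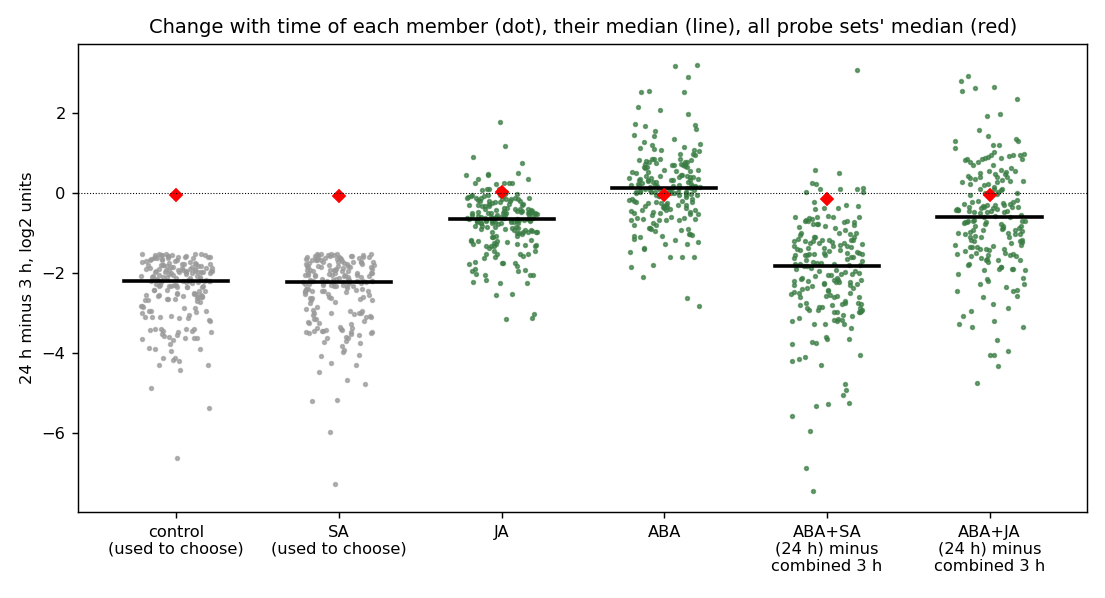
Change from 3 h to 24 h in log2 units for each of the 195 members (dots), their median (black line) and the median of all probe sets (red diamond). The medians are -2.20 in the control and -2.22 with SA, which chose the members, -0.65 with JA, 0.12 with ABA, and -1.83 for ABA+SA and -0.60 for ABA+JA against the pooled combined arrays of 3 h; dots are spread sideways only to be seen.

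At 3 h the members were lower with ABA alone than with ABA and a further hormone. Of the 195, 79 (40.5%) were lower and 2 (1.03%) higher with ABA alone than in the combined arrays, against 10.2% lower and 10.3% higher over all probe sets. The median difference was -1.51, with 182 members below 0, against 0.00 for all probe sets. Against JA alone at 3 h, 41 members (21.0%) were lower and 1 (0.513%) higher with ABA, where 4.83% of all probe sets were lower and 3.02% higher, and the median difference was -1.29. Both comparisons use the same ABA arrays, and the first shares its combined arrays with the test of time above, so the counts are not independent. The counts depended on single arrays. Where leaving out an array left 1 sample in a group, here and below, its spread was taken from the remaining groups, and a lost call can go with a difference of similar size. Without replicate 1 of ABA at 3 h, which had the lowest member level of the 3, 26 members were lower than in the combined arrays and 12 were lower than with JA. Without replicate 1 or replicate 2 of JA at 3 h, 11 and 19 members were lower than with JA.

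At 24 h the members stood higher with ABA+JA than with ABA+SA. Of the 195, 13 (6.67%) were higher and 0 lower, against 0.655% higher and 1.42% lower over all probe sets. An unadjusted p under 0.05 was found for 75 of the 195 members and for 3599 of all 22746 probe sets. The median difference was 1.22, with 184 members above 0, against 0.06 for all probe sets. It was 0.60 without replicate 1 of ABA+JA, with 6 members higher, and 1.85 without replicate 2 of ABA+JA, with 34 higher. Without replicate 1 or 2 of ABA+SA, 8 and 4 members were higher. With all 26 arrays in the fit, 28 were higher. The count also rose with the replicate number added to the model and no arrays averaged, as the last section gives.

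Set beside the control cells of the same time, which chose the members, the groups lay as follows, as a description only. At 3 h the median member differed by -1.56 with ABA alone, by -0.34 with JA, by 0.11 with SA and by 0.03 in the combined arrays. With ABA alone 136 members were at least 1 log2 unit lower and 9 higher, while in the combined arrays 54 were lower and 47 higher. Over all probe sets 8.74% were as much lower and 5.99% higher with ABA alone, and 10.2% and 6.89% in the combined arrays. A change with time in the combined arrays thus starts above the control level of 3 h in some members and below it in others. At 24 h the median member was 0.74 higher with ABA, 1.18 higher with JA, 0.16 higher with ABA+SA and 1.53 higher with ABA+JA. At least 1 log2 unit higher at 24 h were 75 members with ABA, 115 with JA, 51 with ABA+SA and 152 with ABA+JA. Over all probe sets 5.99%, 3.33%, 4.25% and 5.07% were as much higher, in that order. The JA and ABA+JA values were larger in replicate 1 than in replicate 2 of each group. In JA replicate 1 alone the median was 2.16 higher with 179 such members (6.02% of all probe sets), and in replicate 2 it was 0.26 higher with 37 (2.73%). In ABA+JA replicate 1 the median was 2.25 higher with 182 such members (6.1% of all probe sets), and in replicate 2 it was 0.92 higher with 92 (5.74%).

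Enzymes that break down amino acids and their carbon skeletons made up 7 of the named members. In the combined arrays 2 of the 7 fell with time and 0 rose, and 5 of the 7 were lower with ABA alone than in the combined arrays at 3 h. Beside these and the counts by role that follow stand the shares of all probe sets, 13.3% lower and 18.2% higher with time and 10.2% lower with ABA alone at 3 h. LKR/SDH, which carries out the opening steps of lysine breakdown, read 11.04, 10.61, 10.86 and 10.84 in the combined arrays at 3 h. At 24 h it read 7.58 and 8.27 with ABA+SA and 8.26 and 8.75 with ABA+JA, and fell by 2.62 ± 0.54 log2 units (SE, adjusted p = 0.00266). The times did not overlap, and the call held with any 1 array left out. IVD, the isovaleryl-CoA dehydrogenase of leucine breakdown, read 9.61, 9.81, 10.30 and 10.30 at 3 h, against 7.5 and 7.32 with ABA+SA and 9.69 and 7.54 with ABA+JA at 24 h, and fell by 1.99 ± 0.59 log2 units (SE, adjusted p = 0.0215). Replicate 1 of ABA+JA at 24 h reached the level of 3 h, and the other 3 arrays of 24 h lay below it. The call of IVD was lost without 6 of the 8 arrays, each in turn, at adjusted p of 0.0507 to 0.0913.

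PPDK, which turns pyruvate into phosphoenolpyruvate, showed the widest range of this group. With ABA alone it read 3.75, 4.37 and 4.16 at 3 h, against 9.44, 8.64, 8.73 and 8.51 in the combined arrays, a difference of -4.82 ± 1.35 log2 units (SE, adjusted p = 0.0246). With JA it read 9.11 and 6.77 at 3 h, against 9.72 and 3.97 at 24 h, so that the JA arrays of 24 h held both the highest and one of the lowest values of the gene. MCCA, a subunit of the methylcrotonyl-CoA carboxylase of leucine breakdown, differed between ABA and the combined arrays at 3 h by -3.53 ± 0.87 log2 units (SE, adjusted p = 0.0133). ETFQO, which passes electrons from these dehydrogenases to ubiquinone, differed by -2.75 ± 0.62 log2 units (SE, adjusted p = 0.00882), and ALDH7B4, an aldehyde dehydrogenase, by -1.79 ± 0.47 log2 units (SE, adjusted p = 0.0188). IVD differed by -2.20 ± 0.72 log2 units (SE, adjusted p = 0.0481). Every one of these 5 calls was lost without replicate 1 of ABA at 3 h, at adjusted p of 0.134 to 0.332 with differences of -4.56 for PPDK, -2.82 for MCCA, -2.23 for ETFQO, -1.39 for ALDH7B4 and -1.76 for IVD, and those of PPDK and IVD also without other single arrays. MGL, the methionine gamma-lyase, had no call in any comparison, and its ABA arrays read 7.49, 8.51 and 8.44 at 3 h, against 9.63, 9.60 and 9.12 at 24 h.

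Energy signalling and protein turnover were represented by 5 members, of which 3 fell with time in the combined arrays (13.3% of all probe sets) and 3 were lower with ABA alone at 3 h (10.2% of all probe sets). ATG8E, a ubiquitin-like protein that is joined to the autophagosome membrane, read 9.15, 9.18, 9.30 and 9.24 in the combined arrays at 3 h. At 24 h it read 6.03 and 5.85 with ABA+SA and 8.03 and 7.05 with ABA+JA, and fell by 2.48 ± 0.44 log2 units (SE, adjusted p = 0.000882). With ABA alone at 3 h it read 6.43, 7.19 and 7.22, which lay below all 4 combined arrays. GAMMA-VPE, a vacuolar protease that processes other vacuolar proteins, read 11.19, 11.38, 11.23 and 11.61 at 3 h, against 8.84 and 8.94 with ABA+SA and 10.72 and 10.13 with ABA+JA at 24 h, and fell by 1.69 ± 0.31 log2 units (SE, adjusted p = 0.0012). SKP2A, an F-box protein that marks cell cycle regulators for destruction, read 10.56, 10.51, 10.54 and 10.79 at 3 h, against 8.03 and 7.58 with ABA+SA and 9.08 and 9.0 with ABA+JA at 24 h, and fell by 2.18 ± 0.36 log2 units (SE, adjusted p = 0.000532). In all 3 genes the times did not overlap, and their calls with time held with any 1 array left out. ATG8E and SKP2A were also lower with ABA alone than in the combined arrays at 3 h, by 2.4 (adjusted p = 0.00793) and 2.62 (adjusted p = 0.00157), and ATG8E lost that call without replicate 1 of ABA (adjusted p = 0.118, difference -2.01). AKINBETA1, a beta subunit of SnRK1, was lower with ABA alone than in the combined arrays at 3 h by 2.17 ± 0.65 log2 units (SE, adjusted p = 0.0328), a call lost without any of 4 single arrays at adjusted p of 0.0645 to 0.254. ATL8, a RING-type ubiquitin ligase, had no call, and in the combined arrays it read 4.42, 5.12, 5.81 and 5.65 at 3 h, against 4.98 and 4.91 with ABA+SA and 8.89 and 6.73 with ABA+JA at 24 h.

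All 4 members for sugar and nitrate transport and sucrose synthesis fell with time in the combined arrays, and the median of the 4 changes was -3.19. SWEET2, a sugar carrier of the vacuole membrane, read 8.46, 8.21, 8.67 and 8.34 at 3 h, against 3.87 and 3.42 with ABA+SA and 6.50 and 4.47 with ABA+JA at 24 h, and fell by 3.86 ± 0.58 log2 units (SE, adjusted p = 0.000278). SFP1, of the ERD6-like sugar carriers, read 9.35, 9.01, 10.10 and 9.84 at 3 h, against 4.19 and 4.47 with ABA+SA and 5.36 and 5.17 with ABA+JA at 24 h, and fell by 4.78 ± 0.53 log2 units (SE, adjusted p = 3.05e-05). The control means at 3 h were 6.53 for SWEET2 and 6.34 for SFP1, below every combined array of 3 h. ATSPS4F, a sucrose phosphate synthase, fell by 1.94 (adjusted p = 0.00726) and the nitrate transporter NPF6.2 by 2.51 (adjusted p = 0.0216). NPF6.2 lost its call without 5 of the 8 arrays, each in turn, at adjusted p of 0.0529 to 0.077, while the calls of SWEET2, SFP1 and ATSPS4F held. ABA alone set the members of this group apart from one another at 3 h. Against the combined arrays ATSPS4F was lower with ABA alone by 3.05 (adjusted p = 0.00323) and SWEET2 by 3.03 (adjusted p = 0.0103), while NPF6.2 and SFP1 had no call. The call of ATSPS4F held with any 1 array left out. That of SWEET2 was lost without replicate 1 of ABA, where the difference was -2.03. SFP1 read 8.77, 9.33 and 9.28 with ABA against 6.56 and 5.28 with JA, the only member called higher with ABA than with JA, by 3.12 ± 0.74 log2 units (SE, adjusted p = 0.0245). ATSPS4F read 3.04, 2.27 and 2.62 with ABA against 4.90 and 5.97 with JA, lower by 2.69 (adjusted p = 0.0284). Both calls against JA were lost without replicate 1 of ABA and without either JA array. The differences were then 2.48 to 3.76 for SFP1 and -3.23 to -2.16 for ATSPS4F.

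**Figure D3:**
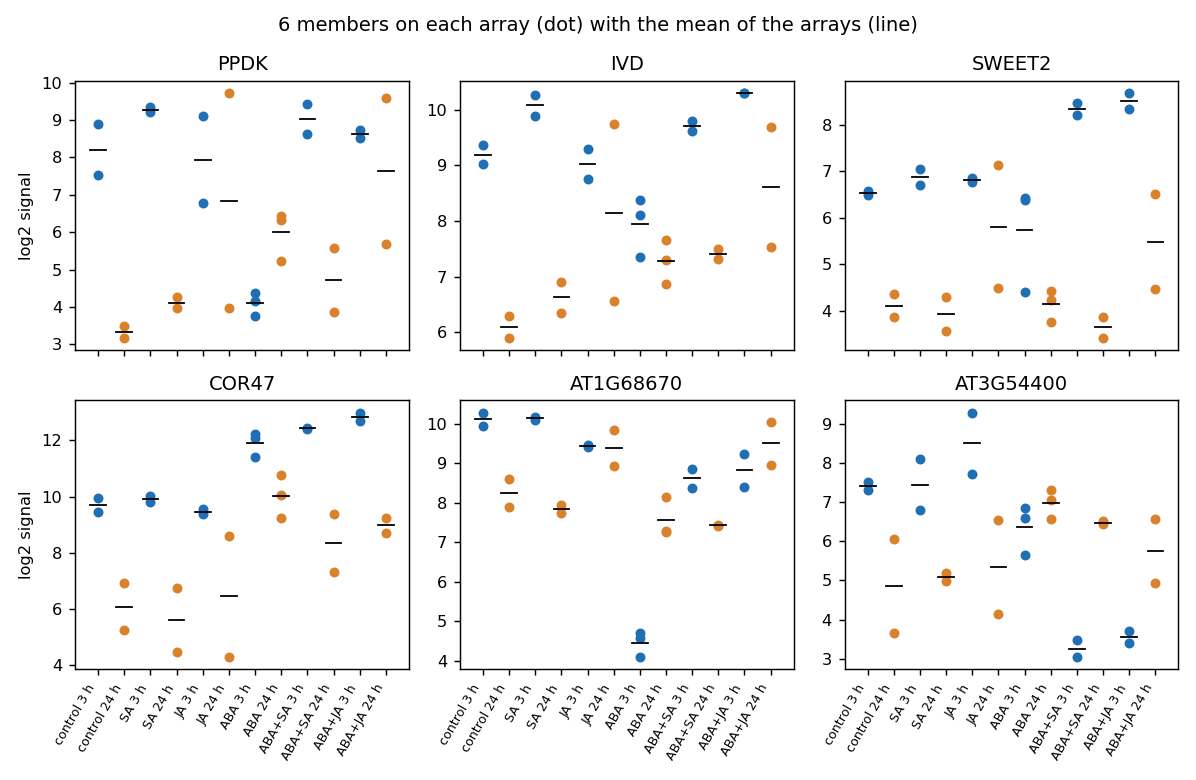
Log2 signal of 6 members on each array (dots, blue at 3 h and orange at 24 h) with the mean of the arrays (line). Among the 3 h arrays PPDK and AT1G68670 lie lowest with ABA alone, COR47 lies highest in the ABA and combined arrays of 3 h, and AT3G54400 lies lowest in the combined arrays of 3 h (3.04 to 3.72).

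Among the 3 members of water and salt stress, COR47 and SIS fell with time in the combined arrays. COR47, a dehydrin that protects cells during cold and drought, read 12.41, 12.46, 12.70 and 12.99 at 3 h, against 9.39 and 7.31 with ABA+SA and 8.72 and 9.22 with ABA+JA at 24 h, and fell by 3.98 ± 0.74 log2 units (SE, adjusted p = 0.00128). In the control COR47 had a mean of 9.71 at 3 h, below every combined array of 3 h. With ABA alone it read 11.42, 12.23 and 12.10 at 3 h, against 10.05, 9.23 and 10.75 at 24 h, and with JA 9.55 and 9.36 at 3 h, against 8.60 and 4.28 at 24 h. The ABA arrays lay above the JA arrays of the same time at both times, with no call between ABA and JA at 3 h. SIS, a serine-rich protein induced by salt, read 7.84, 8.24, 8.27 and 8.03 at 3 h, against 5.80 and 4.68 with ABA+SA and 5.55 and 5.74 with ABA+JA at 24 h, and fell by 2.65 ± 0.30 log2 units (SE, adjusted p = 3.67e-05), and the times did not overlap in either gene. SIS was also lower with ABA alone than in the combined arrays at 3 h, by 1.51 (adjusted p = 0.0126), a call lost without replicate 1 of ABA (adjusted p = 0.201). HIS1-3, a linker histone of drought, had no call in any comparison. It read 5.32, 6.41 and 6.38 with ABA at 3 h, against 8.73, 8.47 and 7.94 at 24 h, so that all ABA arrays of 24 h lay above those of 3 h, at 2.52 ± 0.91 log2 units (SE, adjusted p = 0.218).

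Of 7 members for the cell wall and for phenolic compounds, 3 fell and 1 rose with time in the combined arrays. LigB, an extradiol dioxygenase that opens phenolic rings, read 8.81, 7.56, 7.85 and 7.40 at 3 h, against 5.08 and 5.57 with ABA+SA and 7.57 and 6.84 with ABA+JA at 24 h, and fell by 1.64 ± 0.27 log2 units (SE, adjusted p = 0.000596). At 24 h it was higher with ABA+JA than with ABA+SA by 1.88 ± 0.39 log2 units (SE, adjusted p = 0.0295). The arrays of both groups did not overlap, and this second call was lost without either ABA+SA array or without replicate 1 of ABA+JA, at adjusted p of 0.109 to 0.224. BGLU45 and BGLU46, beta-glucosidases that free the building blocks of lignin from their glucosides, lie next to each other on chromosome 1. BGLU45 fell by 2.32 (adjusted p = 0.0265) with time in the combined arrays, a call lost without 4 of the 8 arrays at adjusted p up to 0.103. BGLU46 read 3.13, 3.62 and 3.74 with ABA at 3 h, 9.13 and 6.60 with JA and 9.62, 8.84, 8.04 and 6.84 in the combined arrays. It was lower with ABA than in the combined arrays by 4.93 (adjusted p = 0.00154), a call that held with any 1 array left out, and lower than with JA by 4.46 (adjusted p = 0.0146), a call lost without replicate 1 of either group at adjusted p of 0.0872 and 0.139. CCOAMT, a caffeoyl-CoA O-methyltransferase, fell by 1.96 (adjusted p = 0.0148) and lost its call without replicate 2 of ABA+JA at 24 h (adjusted p = 0.0507).

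The pectin methylesterase PMEPCRF ran the other way. It read 7.54, 8.05, 8.45 and 8.63 in the combined arrays at 3 h, against 8.72 and 8.77 with ABA+SA and 9.09 and 8.97 with ABA+JA at 24 h, a rise of 0.72 ± 0.23 log2 units (SE, adjusted p = 0.0308), with every array of 24 h above every array of 3 h. Its call was lost without 7 of the 8 arrays, each in turn, at adjusted p of 0.0553 to 0.112. PME61, of the same enzyme family, was lower with ABA than with JA at 3 h by 2.05 (adjusted p = 0.032) and lost this call without replicate 1 of ABA or either JA array, at adjusted p of 0.0583 to 0.22. TBL38, of a family that acetylates wall polymers, had no call.

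Among 4 members of photosynthesis, PSAN was called in 4 of the 6 comparisons. This subunit of photosystem I read 8.01, 7.67 and 7.33 with ABA at 3 h, against 10.35 and 10.15 with JA and 9.23, 9.30, 9.32 and 9.85 in the combined arrays. It was lower with ABA than with JA by 2.5 (adjusted p = 0.00277) and lower than in the combined arrays by 1.67 (adjusted p = 0.00461). At 24 h PSAN read 7.06 and 6.66 with ABA+SA and 10.37 and 9.28 with ABA+JA, a difference of 2.97 ± 0.39 log2 units (SE, adjusted p = 0.00185). From 3 h to 24 h it fell in the combined arrays by 1.08 (adjusted p = 0.00958), although the ABA+JA arrays of 24 h overlapped those of 3 h. The 4 calls held with any 1 array left out, at adjusted p up to 0.042. NdhS, of the chloroplast NADH dehydrogenase-like complex, was lower with ABA than in the combined arrays at 3 h by 1.66 (adjusted p = 0.0175), and lost this call without replicate 1 of ABA (adjusted p = 0.193). LHCB4.2, an antenna protein of photosystem II, and psbJ, a plastid gene of photosystem II, had no call.

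**Figure D4:**
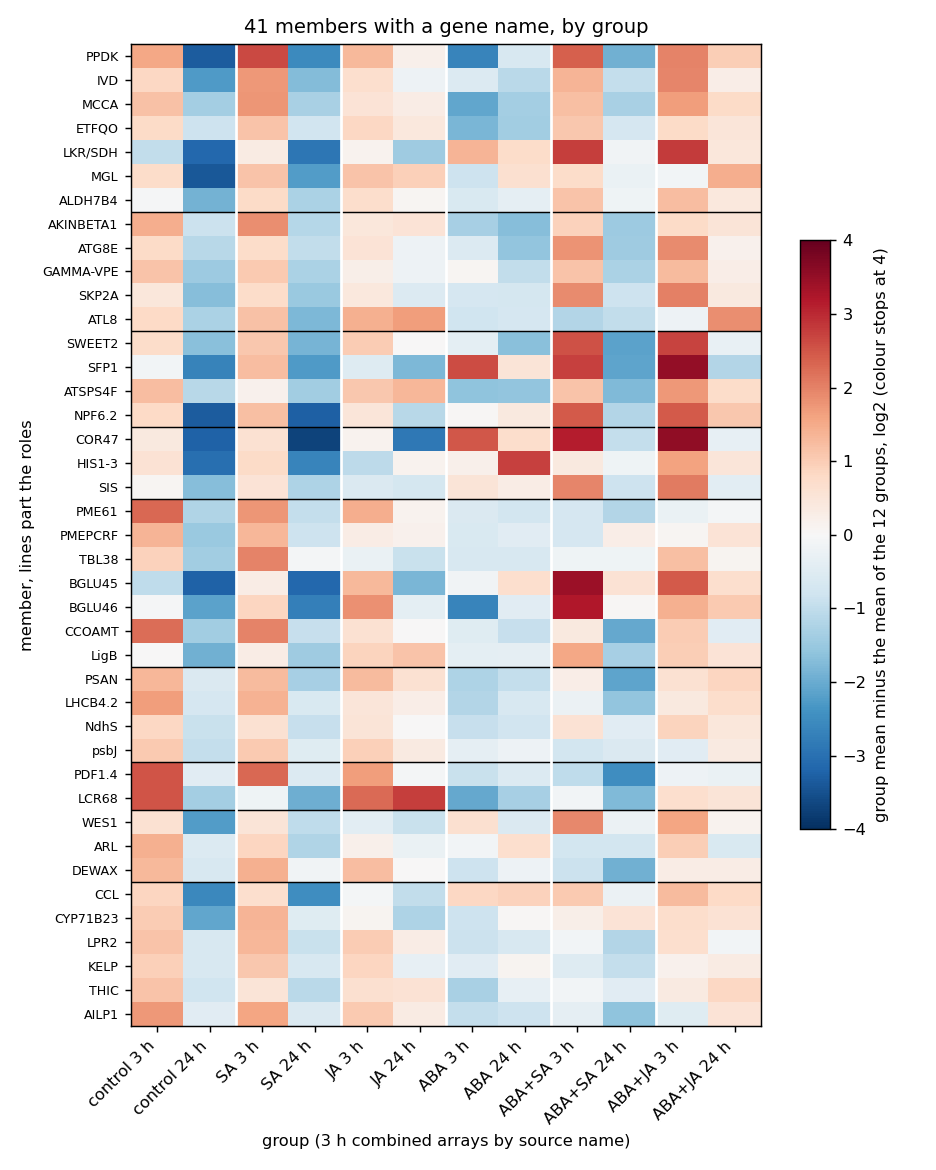
Mean log2 signal of the 41 members with a gene name in each of the 12 groups, minus the mean of the 12 groups; red is higher and blue lower, and lines part the roles. The control and SA columns chose the members, the arrays of 3 h with combined hormones are shown by source name (by title their columns would change places), and COR47, SFP1, SWEET2 and BGLU45 are highest in that pair of columns.

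The remaining named members gave few calls. WES1, which joins auxin to amino acids, fell by 1.81 (adjusted p = 0.021) with time in the combined arrays and lost its call without any of 4 single arrays at adjusted p up to 0.0799. LPR2, a multicopper oxidase of root growth at low phosphate, fell there by 0.93 (adjusted p = 0.0316). It was also lower with ABA at 3 h than with JA, by 1.87 (adjusted p = 0.0191), and than in the combined arrays, by 1.15 (adjusted p = 0.0439). With each array left out in turn, the call with time was lost without 6 of 8 arrays. The call against JA was lost without 3 of 5 and that against the combined arrays without 6 of 7. THIC, which makes the pyrimidine part of thiamine, read 7.38, 7.24 and 7.06 with ABA at 3 h, against 9.08 and 9.31 with JA. It was lower with ABA than with JA by 1.93 (adjusted p = 0.0149) and than in the combined arrays by 1.41 (adjusted p = 0.015), both calls being lost without replicate 1 of ABA at adjusted p of 0.0542 and 0.0844, the first of them also without either JA array (0.0705 and 0.0892). The growth gene ARL, the wax regulator DEWAX, the clock-regulated gene CCL, the cytochrome P450 CYP71B23, the coactivator KELP and AILP1 had no call, nor had the defensins PDF1.4 and LCR68. LCR68 differed more between the JA replicates than between times, with 3.13 and 10.66 in replicates 1 and 2 of JA at 3 h, against 4.0 and 10.84 at 24 h.

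Members known only by their locus number held the largest called change in each of the 5 comparisons with calls. AT1G05340 read 12.56, 12.24, 12.52 and 12.90 in the combined arrays at 3 h, against 6.66 and 4.70 with ABA+SA and 8.65 and 6.95 with ABA+JA at 24 h, and fell by 5.81 ± 0.77 log2 units (SE, adjusted p = 0.000114). AT2G15960, the member lowest by the rule, read 10.77, 10.48, 11.22 and 10.43 at 3 h, against 3.49 and 3.09 with ABA+SA and 9.80 and 4.97 with ABA+JA at 24 h, and fell by 5.39 (adjusted p = 0.00296). Replicate 1 of ABA+JA stood far above the other 3 arrays of 24 h. AT5G39520 fell by 4.80 (adjusted p = 0.000624). These 3 calls held with any 1 array left out. The control means at 3 h were 9.71 for AT1G05340, 9.78 for AT2G15960 and 7.21 for AT5G39520, each below the mean of the combined arrays of 3 h. With ABA alone AT2G15960 read 6.44, 6.96 and 7.16 at 3 h, against 4.01, 3.73 and 4.01 at 24 h. The times did not overlap, but the change of -2.83 ± 1.46 log2 units (SE, adjusted p = 0.422) was not called.

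Of the other members lowest by the rule, AT2G32150 fell by 2.86 (adjusted p = 0.00876) with time in the combined arrays, AT5G43180 by 4.10 (adjusted p = 0.0112) and AT4G13030 by 1.35 (adjusted p = 0.00709), and the 3 calls held with any 1 array left out. AT4G13030 read 3.65, 4.14 and 4.13 with ABA at 3 h, 7.47 and 6.76 with JA and 7.12, 6.74, 7.49 and 7.64 in the combined arrays, with no overlap. It was lower with ABA than with JA by 3.22 (adjusted p = 0.00167). AT1G33055 had no call, and read 7.75, 5.10 and 5.08 with ABA at 3 h, against 9.49, 7.08 and 10.29 at 24 h.

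AT3G54400 ran against the others. In the combined arrays it read 3.04, 3.47, 3.40 and 3.72 at 3 h, against 6.44 and 6.52 with ABA+SA and 6.57 and 4.95 with ABA+JA at 24 h, a rise of 2.71 ± 0.52 log2 units (SE, adjusted p = 0.0016), with no overlap. At 3 h it was also higher with ABA alone, at 5.66, 6.84 and 6.59, by 2.78 ± 0.63 log2 units (SE, adjusted p = 0.00902). With JA it read 7.72 and 9.29 at 3 h, against 6.54 and 4.15 at 24 h, a change of -3.16 ± 0.73 log2 units (SE, adjusted p = 0.737), which was not called. Both of its calls held with any 1 array left out. AT5G24820 rose by 1.52 (adjusted p = 0.0349) with time in the combined arrays, where it read 4.53, 4.76, 3.58 and 2.69 at 3 h, against 3.34 and 4.64 with ABA+SA and 7.07 and 6.59 with ABA+JA at 24 h. The times overlapped in AT5G24820, its call was lost without 6 of the 8 arrays, each in turn, at adjusted p of 0.0553 to 0.135, and its change was 0.10 without the ABA+JA arrays of 24 h. AT5G53110 was higher with ABA alone than in the combined arrays at 3 h by 0.97 (adjusted p = 0.0334), a call lost without any of 4 single arrays at adjusted p up to 0.121.

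Lowest with ABA alone at 3 h against the combined arrays was AT4G01870. It read 5.30, 5.77 and 5.69 with ABA and 11.63, 11.25, 11.73 and 12.09 in the combined arrays, a difference of -6.16 ± 0.86 log2 units (SE, adjusted p = 0.000512). AT4G37180 read 3.35, 3.30 and 3.34 with ABA and 8.91, 9.24, 8.69 and 9.21 in the combined arrays, a difference of -5.67 ± 0.89 log2 units (SE, adjusted p = 0.0011). The groups lay far apart in both genes, and the calls held with any 1 array left out. AT1G62480 read 5.71, 6.39 and 6.21 with ABA, 12.96 and 12.62 with JA and 11.17, 11.35, 12.34 and 11.57 in the combined arrays. It was lower with ABA than in the combined arrays by 5.60 (adjusted p = 0.0244) and than with JA by 6.79 (adjusted p = 0.0394). The first call was lost without any of 4 single arrays at adjusted p up to 0.175, and the second without replicate 1 of ABA or either JA array, at adjusted p of 0.131 to 0.175. At 24 h AT1G62480 read 12.93 and 7.62 with JA and 13.32 and 6.36 with ABA+JA, high in replicate 1 of each group and low in replicate 2. AT1G30700 was lower with ABA than in the combined arrays by 5.21 (adjusted p = 0.00836) and lost this call without replicate 1 of ABA, where the difference was -5.04 (adjusted p = 0.0883).

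Against JA at 3 h, AT1G68670 was lower with ABA by 5.07 (adjusted p = 5.57e-05) and AT5G38710 by 4.48 (adjusted p = 0.00439), and both calls held with any 1 array left out. AT5G38710 read 3.54, 3.07 and 3.13 with ABA and 7.87 and 7.73 with JA at 3 h.

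Of the 13 members higher with ABA+JA than with ABA+SA at 24 h, 4 loci had the largest differences. AT3G43670 read 7.47 and 6.95 with ABA+JA and 2.90 and 3.10 with ABA+SA, a difference of 4.21 ± 0.48 log2 units (SE, adjusted p = 0.000638), and its call held with any 1 array left out. AT1G10140 differed by 3.67 (adjusted p = 0.023), AT5G38710 by 3.54 (adjusted p = 0.0347) and AT3G04000 by 3.00 (adjusted p = 0.0193). Each of these 3 lost its call without 2 of the 4 arrays. Without replicate 2 of ABA+SA the adjusted p was 0.221 for AT1G10140, 0.21 for AT5G38710 and 0.192 for AT3G04000. Without replicate 1 of ABA+JA it was 0.182 for AT1G10140 and 0.147 for AT3G04000, and without replicate 1 of ABA+SA it was 0.111 for AT5G38710.

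Wider lists of genes for the same pathways were read beside the members, chosen with earlier results of these data known. Of 278 entries in 20 lists, 62 could be found by name on the array, and 6 lists had 0 found. Calls of genes that are not members were not tested with arrays left out. Of 26 autophagy genes listed, 10 were found by name, and these were ATG3 and genes of the ATG8 family alone. Of these 10, 1 of them a member, 7 fell and 0 rose with time in the combined arrays, with a median of -0.80. Over all probe sets 13.3% were lower and 18.2% higher. ATG8H fell by 3.78 (adjusted p = 3.16e-06), APG8A by 1.90 (adjusted p = 0.000128) and ATG3, the enzyme that lipidates ATG8 proteins, by 0.84 (adjusted p = 0.00383). At 3 h 7 of the 10 were lower with ABA alone than in the combined arrays, against 10.2% of all probe sets. Of 7 genes found of branched-chain amino acid and lysine breakdown, 4 of them members, 4 fell with time in the combined arrays and 6 were lower with ABA at 3 h. MCCB, the partner subunit of MCCA, fell by 1.34 (adjusted p = 0.0173) and D2HGDH, which oxidises D-2-hydroxyglutarate, by 0.98 (adjusted p = 0.00906).

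A list of sugar carriers that does not hold the members SWEET2 and SFP1 had 10 genes found by name, of which 6 fell with time in the combined arrays. SAG29, which is SWEET15, fell by 4.63 (adjusted p = 1.97e-06), while the 5 others fell by 0.42 to 0.66. SAG29 is no member, and its change with time was -0.12 in the control, -0.55 with SA and -0.14 with JA. At 3 h it was higher with ABA alone than with JA by 3.92 (adjusted p = 0.000575). Of 4 vacuolar proteases, ALPHA-VPE and the member GAMMA-VPE fell. Of 11 tau-class glutathione transferases 3 fell and 1 rose, of 5 genes of bZIP and SnRK1 signalling 1 fell and 2 rose, and of 3 flavonoid genes 2 fell. Lists of so few genes cannot be set firmly against the shares of all probe sets, 13.3% lower and 18.2% higher. The single leaf photosynthesis gene found by name, PSAN, fell. No gene was called in the combined arrays with time in the lists of sugar starvation (2 found), peroxisomal fatty acid breakdown (2), senescence regulators (3), sulphur starvation (1), nitrogen uptake (1) or low oxygen (2). With ABA alone, AMY1, an alpha-amylase of the sugar starvation list and no member, rose from 3 h to 24 h by 3.33 (adjusted p = 0.0163), and AIM1 of peroxisomal fatty acid breakdown by 1.26 (adjusted p = 0.0163). The nitrate transporter NRT2.5 was higher with ABA alone than in the combined arrays at 3 h by 2.3 (adjusted p = 0.00479). The lists with 0 genes found by name, whose genes may be on the array under locus numbers and were not analysed here, were those of trehalose phosphate synthases, glutamate and proline breakdown, phosphate starvation, cytosolic glutamine and asparagine synthesis, ribosomal proteins and seed storage.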

How the data were processed

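Total RNA of 26 samples of T87 cells was measured on 1 single-channel expression array each. The authors deposited 1 table of log2 signals of 22746 probe sets, made with RMA (background correction, quantile scaling between arrays and probe summary) per the submitters' processing notes. Its version is not stated there. The values ran from 1.77 to 13.91, with 0 missing, and 0 columns were left unused. The platform annotation paired 13513 probe sets with 1 gene, 503 with several and 8730 with none, and 13436 of the first were found in the RefSeq gene table, which supplied names and chromosomes.

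The 6 comparisons were fitted in limma 3.58.1 (R 4.3.3) on the 18 arrays of JA, ABA, ABA+SA and ABA+JA, with a mean per group, no filter on dim probe sets and Benjamini-Hochberg adjustment over all probe sets. Replicates 2 and 3 of ABA at 3 h were averaged first, leaving 17 samples and 9 residual degrees of freedom. Combined arrays were averaged over SA and JA. On data simulated for JA at 24 h against 3 h on 22746 probe sets, 28% of 100 changes of 1 log2 unit and 76% of 100 changes of 2 log2 units were called, with 7 false calls. The noise was drawn independently for each probe set, with its spread pooled over all groups. The real JA arrays of 24 h differed by an SD of 0.735, the widest of all replicate pairs. These shares therefore do not measure what the real JA comparison could find.

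The members and gene lists were chosen with earlier results of these data known. Locus-only members are named where they were among the 10 lowest by the ranking value, among the 4 at either end of the called members in a comparison, or next to the limit of the ranking. All members with a gene name are described by role, a choice made after their values were seen. A grouping of members by product keywords and a search of promoters for motifs were planned but not done, since no product text or sequence table was used here. Alternatives were other scaling, variance prior, filter and array sets, no averaging, a block for the replicate number and each array left out. Same-numbered replicates were checked for pairing. The deviations of replicate 1 from its group mean correlated at -0.401 to 0.533 over 28 pairs of groups, 14 of them over 0.1. This does not settle whether the numbers pair the samples, and the main fit has no block for them.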

Additional observations from a re-analysis of the deposited data

Results flagged for a closer look

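In 3 members named above, every array of one treatment moved one way from 3 h to 24 h and every array of another moved the opposite way. AT3G54400 differed between 3 h and 24 h by 2.71 log2 units in the combined arrays and by -3.16 with JA alone. AT4G01870 differed by 1.55 between 3 h and 24 h with ABA alone and by -3.50 in the combined arrays. AT4G37180 differed by 3.19 with ABA alone and by -1.76 in the combined arrays. The difference between treatments was not tested in any of the 3.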

How the results depend on the processing

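With each array left out in turn, the median change with JA ranged from -1.65 to 0.36 and that with ABA from -0.10 to 0.23, so neither kept its direction; the ABA median was -0.0083 without replicate 1 of ABA at 24 h. Members called lower with JA numbered 0 to 1, and members called higher with ABA 1 to 2. Members called higher with time in the combined arrays numbered 1 to 3. With ABA against the combined arrays at 3 h, 26 to 79 members were lower, 1 to 2 higher, and the median ran from -1.52 to -1.20. With ABA against JA at 3 h, 11 to 40 were lower and 0 to 1 higher. With ABA+JA against ABA+SA at 24 h, 4 to 34 were higher and the median ran from 0.60 to 1.85. With all 26 arrays in the fit, 5 members were higher with ABA over time and 28 with ABA+JA. Without the dimmest 25% of probe sets 2 were higher with ABA, and without averaging 5. With ABA+JA at 24 h left out, chosen after seeing the data, 1 member was higher with time in the combined arrays and the median was -1.83. The cause was not tested for any of these, and the shares of all probe sets called in these fits are not given. The check did not settle whether the replicate numbers pair the samples, and in it 11 of 18 arrays matched best an array of their own number. With the replicate number as a block and no arrays averaged, 7 members rose and 2 fell with ABA over time and 20 were higher with ABA+JA. Of 290 values of 23 named results, 251 kept their call, 39 lost it and 0 reversed; 36 of those lost had an array left out. AT1G62480 against JA lost its call under a trended variance prior (adjusted p = 0.0628). AT5G24820 and PMEPCRF lost theirs without ABA+JA at 24 h (adjusted p = 0.911 and 0.155). The signals carry no detection calls here, so which dim members lay above background is unknown.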
